A study of Homo sapiens with 6 samples.

Results

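Heat shock proteins and chaperonins are the cell's protein-folding machines, and their genes were examined in K562 cells whose TIP60 complex had lost its attachment to TRRAP. The genes were chosen by symbol alone: HSPA and HSPB genes, the 3 genes HSP90AA1, HSP90AB1 and HSP90B1, the DNAJA, DNAJB and DNAJC genes, the subunits of the TRiC chaperonin (CCT2 to CCT8 and TCP1), HSPD1, HSPE1, HSPH1 and the heat shock factors HSF1 and HSF2. This gave 83 gene IDs with 82 symbols out of 60609 gene IDs in the count files. Not all of these encode chaperones. HSF1 and HSF2 are transcription factors, GENCODE 44 annotates HSPA7 and DNAJB3 as pseudogenes, and HSPB11 is known as a subunit of the intraflagellar transport machinery. The symbol HSPA14 stands for 2 overlapping gene IDs in the files, of which the newer annotation names the second MSANTD7.

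All 6 libraries were poly(A) RNA of K562, an established human leukaemia line, in which endogenous EP400, the ATPase and scaffold subunit of TIP60, carries a dTAG degradation tag. Every library came from cells given 500 nM dTAGV-1, the compound that triggers degradation of the tagged protein, for 24 h. The groups differed in the EP400 transgene at the AAVS1 locus: exogenous WT EP400 in 3 libraries (WT) and exogenous Delta-TRRAP EP400, which lacks the stretch that holds TRRAP, in 3 libraries (Delta-TRRAP). Each complemented line is described as clonal, so clone and genotype cannot be told apart, and no library without dTAGV-1 was analysed here. The replicates are described as biological replicates of each line, so the p-values measure the spread between replicates of a line and not between clones.

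Between 35076835 and 42616061 counts fell in genes per library. The share that went to the chaperone genes was 2.67% to 2.7% with WT EP400 and 2.54% to 2.58% with Delta-TRRAP EP400. Mitochondrially encoded genes made up 3.18% to 3.71% and 5.07% to 6.24%, respectively, and leaving them out of the fit changed no count of chaperone genes called. EP400 itself measured 5100 ± 282 normalized counts in WT and 5520 ± 1172 in Delta-TRRAP (SD, n = 3 each, adjusted p = 0.354), which does not separate transgene from endogenous transcripts. The labels give the cell type as Lymphoblast. All 10 erythroid markers of K562 looked at passed the filter on low counts, against 3 of 7 lymphoid markers, with MS4A1 at 0 in every library. Of the erythroid markers, 4 were lower and 4 higher at an adjusted p of 0.01 or less (40% each). Over all genes tested, 28.9% were lower and 29.6% higher. HBZ was called higher (log2 fold change 2.87 ± 0.09), and LMO2 and TFRC were called lower (-1.16 ± 0.05 and -1.12 ± 0.05). Of 8 fibroblast markers, 4 passed the filter. COL1A2 stood at 1.63 normalized counts in WT and 868 in Delta-TRRAP and PDGFRB at 1.67 and 9.25, both called higher. Both averaged under 5 in WT and passed the filter only through Delta-TRRAP, so a difference between groups was built into their passing. COL1A1 (28.9 and 29.8, adjusted p = 0.918) and DCN (11.7 and 8.86, adjusted p = 0.429) did not pass. COL3A1 (0.68 and 9.28) and THY1 (0 and 0.32) fell under the filter and were not tested, and LUM and PDGFRA stood at 0 throughout. The part of these erythroid and fibroblast markers in the results was not tested. In bulk RNA, fewer cells expressing a gene and less RNA per cell cannot be told apart.

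As background, HSP70 proteins bind unfolded stretches of other proteins and release them in a cycle driven by ATP. J proteins (the DNAJ families) deliver clients to HSP70 and start that ATP cycle, HSP110 proteins reload HSP70 with nucleotide, and HSP90 takes over clients that are close to their folded state. TRiC is a ring-shaped cytosolic chamber that folds actin and tubulin, HSPD1 with its lid HSPE1 forms the corresponding chamber in mitochondria, and small heat shock proteins hold unfolded proteins without using ATP. Many of the inducible genes are switched on by HSF1 through heat shock elements, arrays of the letters GAA and TTC in their promoters, while chaperones of the endoplasmic reticulum respond to the unfolded protein response through the ER stress element.

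Upstream sequences of a few chaperone genes are shown first. Among HSP70 and HSP90 genes that share a heat shock element, some fell and others did not pass the test. Capitals mark the fixed letters of the motif, each stretch is written 5′ to 3′ on the strand of its gene, and the sequences and gene starts are from RefSeq on GRCh38.p14. Stretches were cut to bases outside every annotated exon, or to 30 bases around the motif where another transcript of the locus covers it. HSPA6 (chr1:161524420-161524539, plus strand), HSP90AA1 (chr14:102087045-102087164, minus strand), HSP90AB1 (chr6:44247823-44247865, plus strand) and HSPA8 (chr11:123062170-123062199, minus strand) carried the heat shock element.
HSPA6: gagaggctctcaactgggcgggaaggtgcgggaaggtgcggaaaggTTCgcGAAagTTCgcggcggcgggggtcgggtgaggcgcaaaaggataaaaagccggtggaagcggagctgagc
HSP90AA1: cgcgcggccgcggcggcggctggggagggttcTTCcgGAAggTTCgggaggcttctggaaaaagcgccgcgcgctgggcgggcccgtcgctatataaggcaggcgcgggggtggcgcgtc
HSP90AB1: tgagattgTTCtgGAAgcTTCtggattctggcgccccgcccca
HSPA8: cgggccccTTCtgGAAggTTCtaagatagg

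HSPA5 (chr9:125241383-125241463, minus strand) and HSP90B1 (chr12:103930316-103930345, plus strand), the HSP70 and HSP90 of the endoplasmic reticulum, carried the ER stress element. The last stretch lies upstream of HSPE1 (chr2:197500345-197500374, plus strand) in the 104 bases that separate its start from the nearest start of HSPD1 on the other strand, and its capitals mark an E-box.
HSPA5: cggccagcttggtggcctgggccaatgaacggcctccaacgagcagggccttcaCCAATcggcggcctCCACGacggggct
HSP90B1: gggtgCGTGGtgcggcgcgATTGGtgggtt
HSPE1: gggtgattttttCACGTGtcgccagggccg

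The motif search covered 250 bases before to 50 after each gene start, on both strands, for the 71 of 82 symbols with a RefSeq entry. The heat shock element was searched as the blocks GAA, TTC and GAA with 2 free bases between them. It was found in 7 chaperone genes (9.86%) against 0.608% of 27305 genes, namely DNAJA1, DNAJB6, HSP90AA1, HSP90AB1, HSPA6, HSPA8 and HSPD1. The ER stress element, searched as CCAAT and CCACG with 9 free bases between them, was found in HSPA5 and HSP90B1 (2.82% against 0.0916% of genes), and the E-box CACGTG in 9 chaperone genes (12.7% against 8.77%). A match describes the letters in the window and is no evidence of binding. Of the 7 genes with the heat shock element, HSPA6, HSP90AA1, HSPD1 and DNAJA1 were lower in Delta-TRRAP, and HSP90AB1, HSPA8 and DNAJB6 did not pass the test. For comparison, 52.1% of all chaperone genes tested were lower, and 61.5% of those averaging at least 1000 normalized counts. Over all genes tested the share was 28.9%.

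To ask how the folding machinery responded to the loss of TRRAP attachment, every gene whose normalized counts averaged at least 5 was tested. Of the 83 IDs, 71 passed this filter, and 12 did not (DNAJA4, DNAJB7, DNAJB8, DNAJB13, HSPA1A, HSPA1B, HSPA1L, HSPA2, HSPA12B, HSPB2, HSPB7 and HSPB9), among which DNAJB8 and HSPB2 had no count in any library. DNAJB3, HSPA12A and HSPB8 passed only through their level in Delta-TRRAP, so a difference between groups was built into their passing. A gene is called here at an adjusted p of 0.01 or less with a fold change of at least 2, and is said to be lower or higher where the adjusted p alone was met. DNAJB2, DNAJB3, DNAJC15, DNAJC28 and HSPB8 were called higher, 5 of 71 against a background of 16.2% of all 19114 genes tested. DNAJC22, HSPA6 and HSPE1 were called lower, 3 of 71 against 6.34%.

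Smaller changes were mostly decreases. At the adjusted p alone, 37 chaperone genes were lower (background 28.9%), 11 were higher (background 29.6%) and 23 did not pass. For 60 of the 71, all WT libraries lay on the same side of all Delta-TRRAP libraries, which held for 71.1% of all genes. The median log2 fold change (Delta-TRRAP over WT) was -0.23 for the chaperone genes, with a range from -2.04 to 3.92, and 0.01 for all genes tested. Part of that gap goes with expression level. Of the genes averaging at least 1000 normalized counts, 48.4% were lower and 20.7% higher with a median of -0.17, against 32 of 52 chaperone genes lower (61.5%), 2 higher and a median of -0.31. When libraries were scaled by their size only, the median shifted by 0.16 for all genes and to -0.08 for the chaperone genes, with 28 lower and 17 higher.

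**Figure D1:**
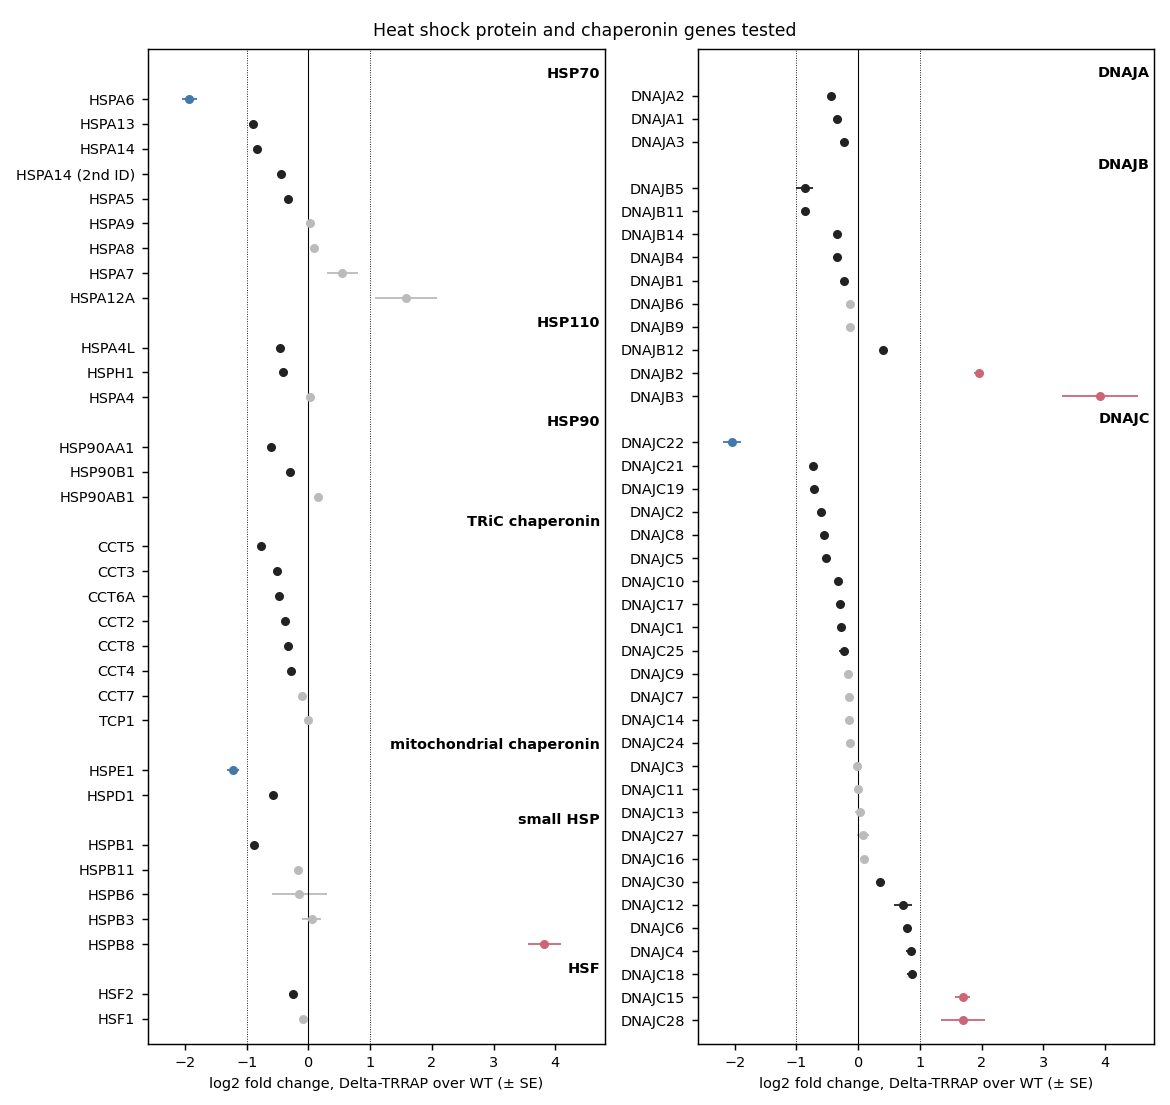
Log2 fold change of Delta-TRRAP over WT (x axis) with its standard error for the 71 chaperone genes tested, grouped by family (3 libraries per group). Red and blue points were called higher (5) and lower (3), black points passed the adjusted p with under 2-fold change, grey points did not pass, and dotted lines mark a 2-fold change. All 8 TRiC subunits lie left of 0 (6 under library-size scaling), and the DNAJC family spreads to both sides. Of the 6803 genes averaging at least 1000 normalized counts, 4461 had a negative log2 fold change.

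The HSP70 family was led by the fall of HSPA6, a strictly inducible human HSP70 (chr1:161524540-161526894). HSPA6 measured 255, 295 and 282 normalized counts in WT and 70.4, 86.0 and 61.3 in Delta-TRRAP. Every Delta-TRRAP library lay far below every WT library, a 3.81-fold fall (log2 fold change -1.93 ± 0.13 SE, adjusted p = 2.30e-09). Reads were counted only where they mapped uniquely, and 43.9% of the 50-base windows of the HSPA6 transcript occur nowhere else on the assembled chromosomes. HSPA7, a pseudogene near HSPA6 with a share of 43.7%, measured 21.8 ± 0.72 in WT and 32.1 ± 9.04 in Delta-TRRAP (adjusted p = 0.0635). Reads without a unique position were not counted, so the counts of both genes may understate their levels by an unknown amount. The windows were set at 50 bases and not at the read length, so the share of reads lost was not measured.

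HSPA1A and HSPA1B, the classical stress-inducible HSP70 pair, could not be read here. They held 10 and 1 counts in all 3 WT libraries together and 9 and 0 in Delta-TRRAP. Unique windows made up only 24.9% of HSPA1A and 28.4% of HSPA1B, since the genes are near-identical copies, so their counts may understate their level by an unknown amount. The sum of both relative to HSPA8 was not distinguishable between groups (log2 difference -0.76, exact two-sided permutation p = 0.4, smallest possible 0.1). HSPA1L, a related gene of the same cluster, held 3 counts over the WT libraries and 13 over the Delta-TRRAP libraries, which is a ratio of 4.29 with a 95% exact counting interval of 1.18 to 23.5 that covers counting error only.

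Of the constitutive HSP70 genes HSPA5, HSPA8 and HSPA9, only HSPA5 was lower, and the others did not pass. HSPA8, the cytosolic housekeeping HSP70, measured 130142, 129366 and 131581 in WT and 139079, 138079 and 136870 in Delta-TRRAP. Its libraries did not overlap, but the log2 fold change of 0.08 ± 0.05 did not pass (adjusted p = 0.140), and the same gene was past the threshold when libraries were scaled by size alone. HSPA9, the mitochondrial HSP70, had a log2 fold change of 0.02 ± 0.05 (adjusted p = 0.671). HSPA5, the HSP70 of the endoplasmic reticulum also called BiP, was lower with 38083 ± 985 against 30227 ± 836 (log2 fold change -0.33 ± 0.05, adjusted p = 2.19e-05).

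HSPA13, a microsome-associated HSP70, fell from 6389 ± 524 to 3415 ± 130 (log2 fold change -0.90 ± 0.06, adjusted p = 3.41e-09), the value closest to the 2-fold limit without reaching it. HSPA14, a ribosome-associated HSP70, was lower at -0.83 under its first ID. The second ID of that symbol, MSANTD7 in the newer annotation, was lower at -0.45 and shares 318 bases of exon with the first. HSPA12A, a divergent family member, measured 3.06 ± 1.81 in WT and 9.22 ± 1.63 in Delta-TRRAP and narrowly did not pass (adjusted p = 0.0107). In all, 5 of the 9 HSP70 IDs tested were lower (55.6%) and none was higher, with a median log2 fold change of -0.33. Over all genes 28.9% were lower, and 48.4% of those averaging at least 1000 normalized counts. The 9 IDs include the second HSPA14 ID, which was lower, and the pseudogene HSPA7, which did not pass. Scaled by library size alone, HSPA8, HSPA9 and HSPA12A were higher. HSPA12A was also called higher with upper quartile scaling, limma-voom, TMM over tested genes only or an adjusted p of 0.05.

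Of the HSP110 genes, HSPH1 and HSPA4L were lower, at -0.41 ± 0.05 and -0.46 ± 0.06 on the log2 scale. HSPA4 measured 25275 ± 185 in WT and 25696 ± 394 in Delta-TRRAP (log2 fold change 0.02 ± 0.05, adjusted p = 0.669), and was higher only when libraries were scaled by size alone. HSPA4 lies among genes with higher expression in Delta-TRRAP: the median log2 fold change of its 20 nearest genes averaging at least 100 normalized counts was 0.28.

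Of the cytosolic HSP90 pair, the inducible gene fell and the constitutive gene did not. HSP90AA1, the inducible form, measured 204147, 192871 and 182815 in WT and 125272, 123859 and 130394 in Delta-TRRAP, so that it fell by 34.5% (log2 fold change -0.61 ± 0.05, adjusted p = 9.60e-08). HSP90AB1, the constitutive form, measured 131882, 141474 and 144817 in WT and 153478, 156712 and 155291 in Delta-TRRAP. WT and Delta-TRRAP libraries were apart for both genes, but HSP90AB1 did not pass (log2 fold change 0.15 ± 0.05, adjusted p = 0.0162), and passed with DESeq2, limma-voom, no filter, library size alone or another TMM setting. Unique windows made up 78.6% and 79.1% of their transcripts.

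Within each library, the ratio of HSP90AA1 to HSP90AB1 counts was 1.55, 1.36 and 1.26 in WT and 0.816, 0.790 and 0.840 in Delta-TRRAP. Every Delta-TRRAP library lay below every WT library. RPKM levels are counts per kilobase of exon, scaled to TMM library size. They were 974 for HSP90AA1 and 1202 for HSP90AB1 in WT, and 638 and 1338 in Delta-TRRAP. These levels divide by all annotated exon bases, 5097 for HSP90AA1 and 2980 for HSP90AB1. The longest coding transcripts hold 3510 and 2674 bases. Which gene is the higher per length in WT depends on that choice, while HSP90AB1 was the higher in Delta-TRRAP with either. The difference in the ratio of -0.77 on the log2 scale has an exact two-sided permutation p of 0.1, the smallest that 3 against 3 libraries can give. HSP90B1, the HSP90 of the endoplasmic reticulum, was lower at 38710 ± 276 against 31551 ± 1342 (log2 fold change -0.30 ± 0.05, adjusted p = 8.58e-05), and did not pass when libraries were scaled by size alone.

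**Figure D2:**
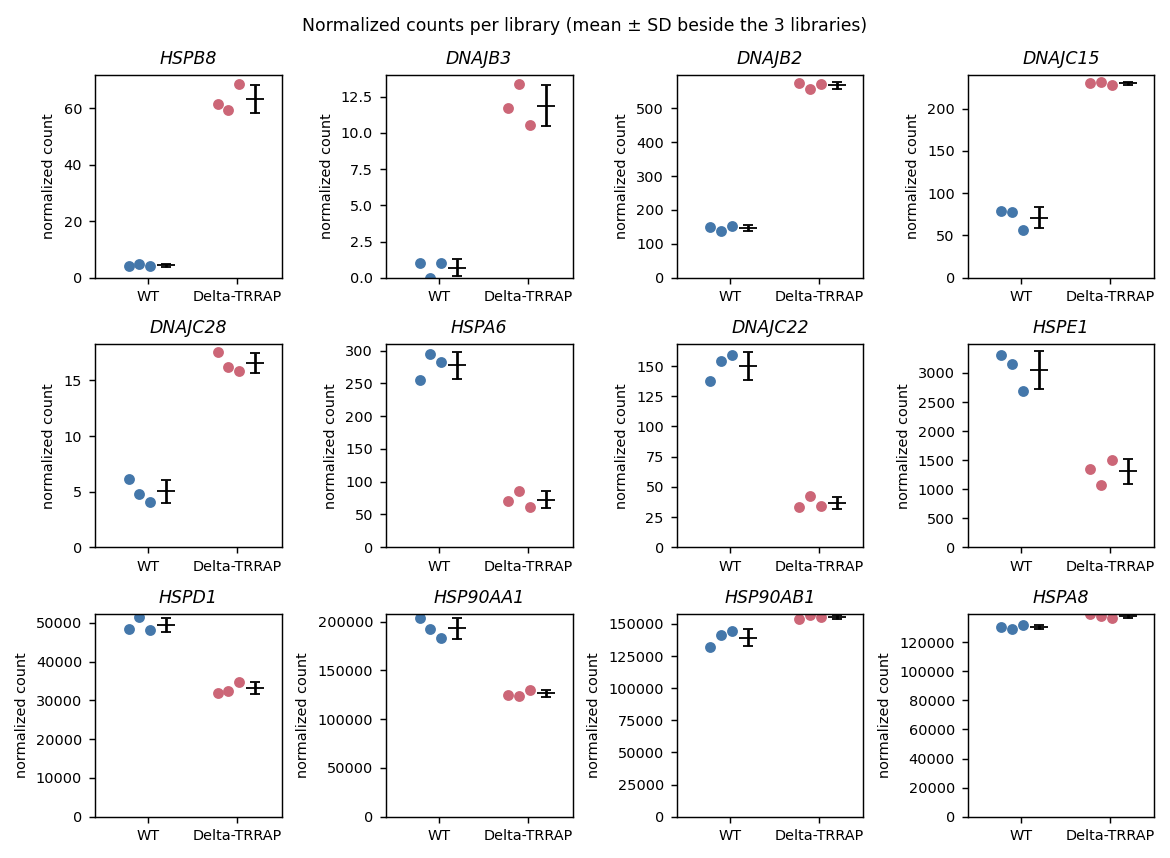
Normalized counts (y axis, from 0) in each of 3 WT (blue) and 3 Delta-TRRAP (red) libraries for the 8 called genes and for HSPD1, HSP90AA1, HSP90AB1 and HSPA8, with the mean ± SD in black beside them. The groups do not overlap in any panel, and HSPA8 and HSP90AB1 differ least in proportion to their level.

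Both mitochondrial chaperonin genes fell. HSPE1, the lid of the chamber (chr2:197500140-197503449), measured 3314, 3161 and 2683 in WT and 1352, 1065 and 1501 in Delta-TRRAP, a 2.34-fold fall (log2 fold change -1.23 ± 0.10, adjusted p = 3.38e-08). HSPD1, the chamber itself, measured 48499, 51403 and 48161 in WT and 31917, 32540 and 34884 in Delta-TRRAP (log2 fold change -0.58 ± 0.05, adjusted p = 1.37e-07). The HSPD1 to HSPE1 ratio was 14.6, 16.3 and 17.9 in WT and 23.6, 30.6 and 23.2 in Delta-TRRAP, without overlap (log2 difference 0.66, exact two-sided permutation p = 0.1, the smallest possible). Unique windows made up 63.8% of HSPD1 and 75.8% of HSPE1, and 10.5% of the HSPE1 exon bases are shared with the readthrough gene HSPE1-MOB4. The nearest RefSeq starts of both genes flank the 104-base interval described above, of which 30 bases were shown. The HSPE1 span printed here is from GENCODE and begins outside that interval. HSPD1 has another RefSeq start at 197499840, and its heat shock element was found from that start.

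**Figure D3:**
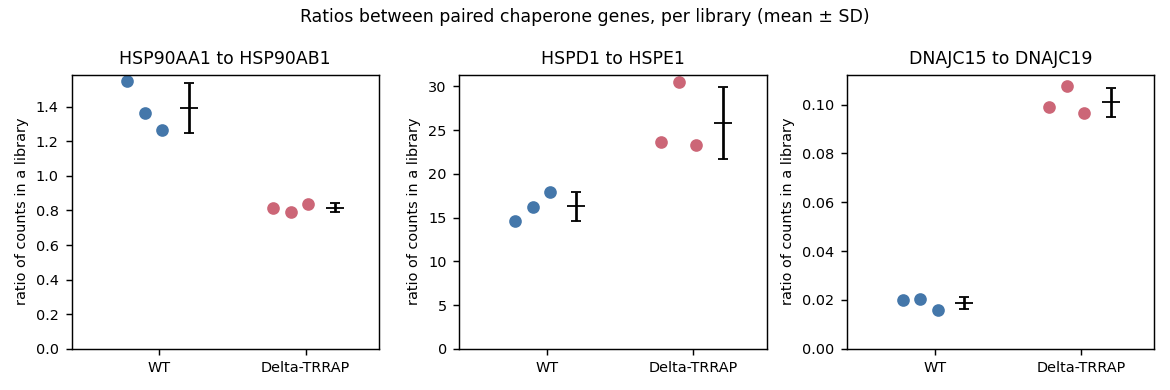
Ratio of counts (y axis, from 0) of HSP90AA1 to HSP90AB1, HSPD1 to HSPE1 and DNAJC15 to DNAJC19 in each of 3 WT (blue) and 3 Delta-TRRAP (red) libraries, with mean ± SD in black. The first ratio is lower and the other ratios are higher in Delta-TRRAP, each without overlap of the groups.

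The 8 TRiC subunits, which assemble in equal numbers, were abundant at every subunit. As RPKM, their WT levels ran from 132 for CCT2 to 297 for CCT8, a 2.25-fold span, and their Delta-TRRAP levels from 101 for CCT5 to 236 for CCT8, a 2.33-fold span. CCT2, CCT3, CCT4, CCT5, CCT6A and CCT8 were lower (75%), and CCT7 and TCP1 did not pass (adjusted p = 0.0656 and 0.819). Over all genes tested 28.9% were lower. All 8 subunits averaged at least 1000 normalized counts, a level at which 48.4% of genes were lower with a median of -0.17. The fold changes ran from -0.76 ± 0.06 for CCT5 to -0.01 ± 0.05 for TCP1 with a median of -0.36, and under library-size scaling CCT7 and TCP1 turned positive and CCT4 did not pass.

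CCT5 measured 35673, 39587 and 37870 in WT and 21601, 21728 and 23388 in Delta-TRRAP. Its 20 nearest expressed genes, reaching up to 8.45 Mb away, had a median log2 fold change of -0.71, close to the -0.76 of CCT5 itself. For CCT7 the neighbours' median was -0.32 and its own value -0.10. After subtraction of the neighbours' median, the subunits spanned 0.50 log2 units in place of 0.75, with a median of -0.20.

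Over the 52 chaperone genes averaging at least 1000 normalized counts, a gene's own log2 fold change and its neighbours' median had a Pearson r of 0.35 and a Spearman rho of 0.37, and over all 71 tested the values were smaller, at 0.12 and 0.26. These are descriptions across genes, which share libraries and, in places, the same neighbours. DNAJC21 (-0.74, neighbours -0.54), DNAJC5 (-0.52, neighbours -0.60) and DNAJB1 (-0.23, neighbours -0.37) also lay in lowered surroundings. HSPA13 (-0.90), DNAJB11 (-0.85) and HSPB1 (-0.88) fell in surroundings with medians of 0.23, 0.04 and -0.07.

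**Figure D4:**
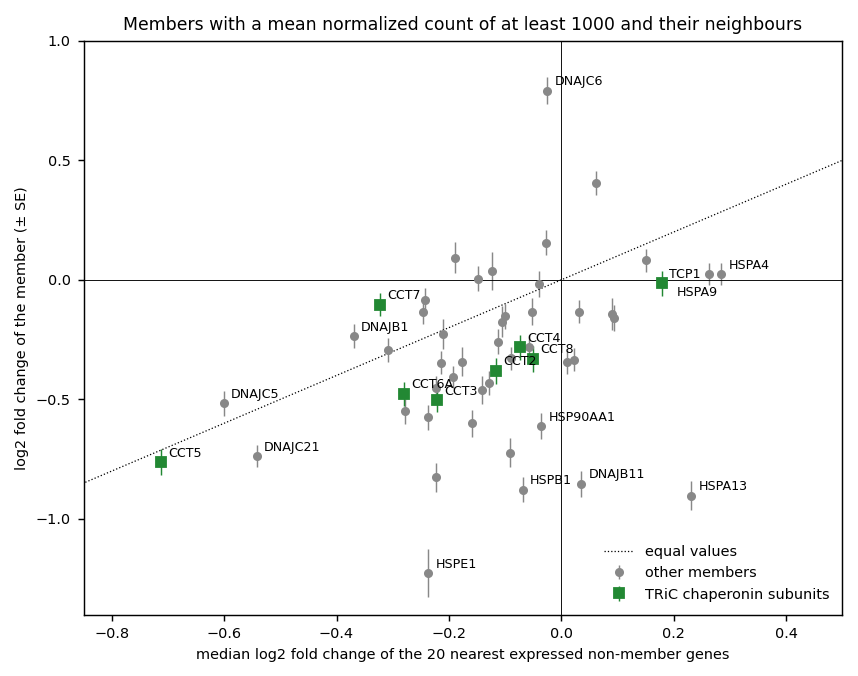
Log2 fold change ± SE of each of 52 chaperone genes averaging at least 1000 normalized counts (y axis) against the median log2 fold change of its 20 nearest genes with a mean of at least 100 (x axis). Green squares are TRiC subunits, grey points other chaperone genes, and the dotted line marks equal values; CCT5 lies at the far left near that line and HSPE1 well below it.

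Among small heat shock proteins, HSPB8 and HSPB1 moved in opposite directions. HSPB8, which works with the cochaperone BAG3 in chaperone-assisted autophagy (chr12:119171555-119224855), measured 4.10, 4.82 and 4.11 in WT and 61.6, 59.2 and 68.6 in Delta-TRRAP. This rests on 13 counts against 190, a ratio of 14.5 with a 95% exact counting interval of 8.26 to 27.7 (log2 fold change 3.82 ± 0.27, adjusted p = 5.66e-09). HSPB8 passed the filter only through its Delta-TRRAP level, so a difference between groups was built into its being tested. The rise took place in surroundings whose median was -0.57. HSPB1, the abundant HSP27, measured 4018, 4064 and 3946 in WT and 2271, 2062 and 2214 in Delta-TRRAP (log2 fold change -0.88 ± 0.05, adjusted p = 7.16e-10). HSPB3, HSPB6 and HSPB11 did not pass, though HSPB11 passed as lower without the third library of either group (log2 fold change -0.25 without that of WT and -0.22 without that of Delta-TRRAP).

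Of 39 J protein genes tested, 18 were lower (46.2%) and 10 higher (25.6%), against 28.9% and 29.6% of all genes. Of genes averaging at least 1000 normalized counts, 48.4% were lower and 20.7% higher. All 3 DNAJA genes tested were lower, DNAJA2 the most at -0.43 ± 0.05, followed by DNAJA1 at -0.34 ± 0.05, and DNAJA3, the mitochondrial member, at -0.23 ± 0.06, which did not pass under library-size scaling or with TMM over tested genes only, nor without the first (adjusted p = 0.0144) or second (0.0237) WT library. Without the third Delta-TRRAP library it stood at -0.15 (adjusted p = 0.0139 in edgeR). DNAJB1, the main cytosolic partner of HSP70 and a common readout of the heat shock response, measured 5638, 5990 and 5828 in WT and 5071, 4923 and 4841 in Delta-TRRAP. The groups did not overlap, and the gene fell by 15.0% (log2 fold change -0.23 ± 0.05, adjusted p = 0.000523), which did not pass under library-size scaling.

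DNAJB2, a J protein known for suppressing aggregation in neurons (chr2:219279342-219286898), measured 150, 137 and 153 in WT and 576, 557 and 571 in Delta-TRRAP. The rise was 3.88-fold with little spread (log2 fold change 1.96 ± 0.08, adjusted p = 1.28e-11). DNAJB3 rose from 2 counts over the WT libraries to 36 over the Delta-TRRAP libraries, a ratio of 17.8 with a 95% exact counting interval of 4.59 to 153 (adjusted p = 3.97e-05). Like HSPB8, it was tested only through its Delta-TRRAP level, so a difference between groups was built in. It lost its call without the second Delta-TRRAP library, where its average fell under the filter and it was not tested. DNAJB5 was lower, with 112 ± 7.59 against 61.5 ± 5.46 (log2 fold change -0.87 ± 0.14), and DNAJB11, a partner of HSPA5, fell from 2504 ± 80.8 to 1386 ± 70.7 (-0.85 ± 0.05). DNAJB12, a J protein of the endoplasmic reticulum membrane, was higher at 0.41 ± 0.05.

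In the DNAJC family, 10 of 26 genes were lower (38.5%) and 7 higher (26.9%), against 28.9% and 29.6% of all genes. For genes averaging at least 1000 normalized counts, these shares were 48.4% and 20.7%. The family's median of -0.14 turned to 0.02 under library-size scaling. DNAJC15 and DNAJC19, related J proteins of the mitochondrial inner membrane import motor, moved in opposite directions. DNAJC15 (chr13:43023203-43114213) measured 78.9, 77.2 and 56.5 in WT and 231, 231 and 228 in Delta-TRRAP (log2 fold change 1.70 ± 0.13, adjusted p = 1.02e-08). DNAJC19 measured 3989, 3785 and 3512 in WT and 2334, 2145 and 2363 in Delta-TRRAP (-0.72 ± 0.06, adjusted p = 3.00e-08). As RPKM, DNAJC15 stood at 0.227 and 0.736 and DNAJC19 at 19.7 and 12 in WT and Delta-TRRAP, so DNAJC19 stayed the more abundant transcript. The DNAJC15 to DNAJC19 ratio was 0.0198, 0.0204 and 0.0161 in WT and 0.0988, 0.108 and 0.0966 in Delta-TRRAP. This pair was singled out after its values were seen, and the ratio was not tested.

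DNAJC28 (chr21:33488055-33491716) rose from 5.02 ± 1.04 to 16.6 ± 0.92 normalized counts, 15 against 50 counts over the libraries (log2 fold change 1.70 ± 0.35, adjusted p = 0.000531). DNAJC22 (chr12:49346888-49357546) measured 137, 154 and 159 in WT and 33.2, 42.0 and 33.8 in Delta-TRRAP, a 4.11-fold fall (log2 fold change -2.04 ± 0.15, adjusted p = 9.11e-09). Its 20 nearest expressed genes had a median of -0.75. Among abundant members, DNAJC6, the auxilin that uncoats clathrin vesicles, rose from 6695 ± 197 to 11579 ± 801 (0.79 ± 0.06, adjusted p = 7.16e-09). DNAJC2, a ribosome-associated J protein, fell from 11512 ± 747 to 7596 ± 237 (-0.60 ± 0.06, adjusted p = 1.35e-07). DNAJC4, DNAJC12, DNAJC18 and DNAJC30 were the other members that were higher, at 0.86, 0.73, 0.88 and 0.36.

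The heat shock factors changed little. HSF1, the master regulator of the heat shock response, measured 1905, 1882 and 1864 in WT and 1812, 1781 and 1744 in Delta-TRRAP (log2 fold change -0.08 ± 0.05, adjusted p = 0.144). HSF2 was lower at -0.26 ± 0.05 (adjusted p = 0.000391) and did not pass under library-size scaling. Transcript levels say nothing of the activity of these factors.

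Partner genes outside the families were read from lists written by hand, whose counts stand against 28.9% lower and 29.6% higher over all genes tested (median 0.01) and 48.4% and 20.7% over genes averaging at least 1000 normalized counts (median -0.17). Of 21 genes of endoplasmic reticulum folding and the unfolded protein response, 15 were lower (71.4%) and 2 higher, with a median of -0.39. PDIA4, a disulfide isomerase, was called lower at -1.45 ± 0.05, and HYOU1, an HSP70-like chaperone, was lower at -0.78 ± 0.05. DDIT3, the transcription factor CHOP, and SIL1, a nucleotide exchange factor of HSPA5, were higher at 0.73 ± 0.07 and 0.46 ± 0.06.

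Of 10 genes of prefoldin, which hands actin and tubulin to TRiC, and other TRiC partners, 8 were lower and 2 higher with a median of -0.54. PFDN4, a prefoldin subunit, was called lower, from 4761 ± 506 to 1544 ± 106 (log2 fold change -1.63 ± 0.07). PFDN1 was higher at 0.40 ± 0.05, and CCT6B, the testis form of the CCT6 subunit, was called higher from 38.2 ± 5.34 to 138 ± 7.36 (1.85 ± 0.15). It is no member of the symbol rule and, as RPKM, stood at 0.229 in WT against 202 for CCT6A.

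Of 22 cochaperones of HSP70 and HSP90, 14 were lower (63.6%) and 3 higher, with a median of -0.28 and none called. PTGES3, the HSP90 cochaperone p23, FKBP5, an HSP90-binding prolyl isomerase, and CACYBP were lower at -0.54 ± 0.06, -0.71 ± 0.05 and -0.80 ± 0.05. BAG3, the partner of HSPB8, was higher at 0.34 ± 0.06, with 1220 ± 62.2 against 1540 ± 76.2. Of 10 genes of mitochondrial protein folding, 5 were lower and 1 higher, with a median of -0.16, about the values of genes averaging at least 1000 normalized counts.

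Of 11 other genes linked to the heat shock response, 9 were tested, 5 were lower and 3 higher. SERPINH1, the collagen chaperone HSP47, was called lower, from 11920 ± 51.5 to 3317 ± 145 (-1.85 ± 0.05). Of the collagen genes given above, COL1A2 was called higher in the same libraries, COL1A1 did not pass and COL3A1 was not tested. SQSTM1, the autophagy receptor p62, was called higher, from 3939 ± 149 to 9275 ± 358 (1.24 ± 0.05).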

How the data were processed

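For each of the 6 poly(A) libraries the authors deposited raw counts of reads per gene, whole numbers without normalization. Per the study's methods and the submitters' processing notes, STAR alignment to hg38 kept only reads with a unique position, and HTSeq 2.0.2 counted them by strand on GENCODE genes, so reads of near-identical copies were lost. Groups came from the sample titles. A deposited table of normalized values, which holds 3 further columns of another condition, and a table of the authors' own fold changes and p-values were not used.

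Differential expression was tested here in R 4.3.3 with edgeR 4.0.16 (TMM over all genes with a count, quasi-likelihood F test, group as the only term). Of 34998 genes with a count, the 19114 averaging at least 5 normalized counts were tested, with Benjamini-Hochberg adjustment over all of them. Calls needed an adjusted p no higher than 0.01 and at least a 2-fold change, after the thresholds of the study, which used DESeq2. To normalize, each count was divided by the effective (TMM) library size, expressed relative to the geometric mean of the 6. Errors are SD over 3 libraries for levels and standard errors for log2 fold changes. The fit was tested on simulated data. Library pairs within a group had a chi-square per gene of 5.02 to 16.3, where counting error alone gives about 1. Same-numbered libraries did not deviate together (correlations -0.029 to -0.009), so no sign of pairing by number was seen. These correlations took in genes of few counts, where counting error can hide a shared deviation, and cannot exclude pairing.

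Positions, exon lengths and transcripts were from GENCODE 44 on GRCh38. Neighbours are the 20 nearest genes averaging at least 100 normalized counts, chaperone genes left out. Unique windows are the 50-base windows of the longest coding transcript (or the longest, for a pseudogene) found once on the assembled chromosomes. Named were a set of main chaperone genes, every called gene and, per family, the largest rise and fall that passed, with a few others chosen after their values were seen. The chaperone genes and the lists were chosen with earlier results of these data known. Alternatives were other scalings, filters, thresholds and tools (DESeq2 1.42.0, limma-voom in limma 3.58.1), a replicate block, and leaving out each library.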

Additional observations from a re-analysis of the deposited data

How the results depend on the processing

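The 5 chaperone genes called higher became 8 under library size alone (DNAJC4, DNAJC18 and HSPA12A added), 2 where genes had to average at least 50 normalized counts (DNAJB2 and DNAJC15) and 9 at a fold change of 1.5, where those called lower became 13. They became 6, with HSPA12A added, under upper quartile scaling, limma-voom, TMM over tested genes only or an adjusted p of 0.05. Testing every gene with a count also gave 6, with DNAJB13 added. Those higher at the adjusted p alone became 17 under library size alone. Over all genes, 3095 called higher became 1147 at an average of at least 50, and 1212 called lower became 2722 at a fold change of 1.5. Leaving out 1 library gave 4 to 5 chaperone genes called higher, 3 called lower throughout, 10 to 11 higher and 34 to 39 lower at the adjusted p alone, and 2829 to 3024 called higher and 1178 to 1263 called lower of all genes. DNAJB3 was the call lost, without the second Delta-TRRAP library, where it fell under the filter. The log2 difference of the HSP90AA1 to HSP90AB1 ratio then ran from -0.83 to -0.69, that of HSPD1 to HSPE1 from 0.53 to 0.73, and that of HSPA1A plus HSPA1B to HSPA8 from -1.43 to -0.21. With the replicate block, the counts were 5 and 3 called and 11 and 37 at the adjusted p alone, and over all genes 3024 and 1194. No pairing is known to stand behind that block, since the labels give the libraries only a shared number. DESeq2 called the same 8 chaperone genes.

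Signs turned only for genes that had not passed. Under library size alone the log2 fold changes were 0.0072 for HSPB6, 0.14 for DNAJC3, 0.024 for DNAJB6, 0.14 for TCP1, 0.024 for DNAJB9, 0.013 for DNAJC14, 0.053 for CCT7, 0.0038 for DNAJC7, 0.021 for DNAJC24 and 0.075 for HSF1. With TMM over tested genes only, chosen after seeing the data, they were 0.0087 for DNAJC3 and 0.0096 for TCP1, and with DESeq2 0.000624 for TCP1. Leaving out 1 library, they ran from -0.46 to 0.14 for HSPB6, -0.048 to 0.033 for DNAJC11, -0.061 to 0.031 for DNAJC3, -0.0067 to 0.029 for HSPA9, -0.053 to 0.0070 for TCP1, -0.079 to 0.14 for DNAJC13 and -0.0081 to 0.11 for HSPB3. The causes of these shifts were not tested. HSPA1A, HSPA1B and other genes of a few counts are limited by depth and by the loss of reads that map to several places.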
